A study of Mus musculus with 16 samples.

Results

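Arg1 and Mrc1 are among the genes used to recognise alternatively activated macrophages, and their chromatin was read here in macrophages of ischemic mouse muscle. The members were chosen by place: they are the peaks of 16 CUT&Tag peak lists that overlapped a 55 kb window at Arg1 (GRCm39 chr10:24770000-24825000) or a 132 kb window at Mrc1 (GRCm39 chr2:14220000-14352000). Of 320508 peaks in all lists, 72 did so, 39 at Arg1 and 33 at Mrc1. Merged within a mark wherever they overlapped by at least 1 bp, they formed 20 regions, of which 8 were called in all 4 libraries of their mark and could be tested.

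Male C57BL6J wild type mice, 8 to 12 weeks old, had the femoral artery ligated and excised, and macrophages were sorted from the calf muscle as CD45+CD11b+F4/80+CD64+ cells. The time points were 4 and 2 dpi (days post injury). All mice were injured, and no uninjured or non-macrophage sample is part of the series. CUT&Tag, in which an antibody guides a transposase to a histone mark, was run with antibodies against histone H3 lactylated at lysine 18 (H3K18la), trimethylated at lysine 4 (H3K4me3), or acetylated (H3K27ac) or trimethylated (H3K27me3) at lysine 27, with 2 libraries per mark and time point. The mice behind each library are not named in the labels. The paper states that the marks were profiled on the same samples, and the contrasts between marks treat their libraries as independent. The p-values therefore measure the spread between these libraries. The markers of the sorted cells could not be checked, since no annotation of GRCm39 was at hand.

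Arginase 1, the product of Arg1, splits arginine into ornithine and urea, which withdraws arginine from nitric oxide synthesis and feeds the synthesis of polyamines and proline used in tissue repair. Mrc1 encodes the mannose receptor CD206, an endocytic lectin that takes up mannosylated glycoproteins and collagen fragments. Both genes are induced in mouse macrophages by interleukin 4 and interleukin 13 through the transcription factor STAT6, and Arg1 also responds to lactate and hypoxia. H3K4me3 marks active promoters, H3K27ac active promoters and enhancers, H3K27me3 chromatin silenced by Polycomb, and H3K18la is laid down where lactate feeds histone acylation. The comparison of 4 with 2 dpi covers the time over which muscle macrophages leave the inflammatory state.

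The promoter of Mrc1 is printed to show the sequence at one end of that locus. It runs from 250 bases before to 50 after the start of the gene, on the plus strand of GRCm38.p6 (chr2:14229164-14229463, RefSeq), a build older than that of the peaks, and was not placed on them. Capitals mark the letters of the PU.1 motif.
Mrc1 promoter: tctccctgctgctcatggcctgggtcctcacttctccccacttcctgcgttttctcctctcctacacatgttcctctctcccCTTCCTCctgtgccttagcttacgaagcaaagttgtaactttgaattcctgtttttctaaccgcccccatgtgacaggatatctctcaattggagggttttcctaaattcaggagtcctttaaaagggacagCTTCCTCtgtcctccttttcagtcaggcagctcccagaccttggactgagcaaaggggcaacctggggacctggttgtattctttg
PU.1, the factor that specifies macrophages, was searched as GAGGAAG on both strands and had 2 matches, both as CTTCCTC, at bases 83 to 89 and 215 to 221. This motif was held by 13.6% of the 32851 promoters in the same table. The window had no match to the letters searched for STAT6 (TTC, any 4 bases, GAA), C/EBP (TTGC, any 2 bases, AA), AP-1 (TGANTCA), PPAR (AGGTCA) or the TATA box (TATAAA), which were held by 6.95%, 10.8%, 7.81%, 16.3% and 13.6% of promoters. Arg1 had no entry in the table.

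In the RefSeq annotation of GRCm38.p6, used for names only, Arg1 is a gene of 12.3 kb that is overlapped by the long non-coding RNA Gm40616 and has Med23, a subunit of the Mediator complex, as its nearest annotated protein-coding gene on one side. Mrc1 spans 103 kb, holds the microRNA gene Mir511, and lies between Tmem236 and Slc39a12. Which of these a peak covers, and whether it is exonic or intronic, could not be told on GRCm39.

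The lists were called library by library and their signal was not normalized, so values were compared as percentiles within a list. The lists held 12060 to 35971 peaks on the 21 chromosomes used, and their sequencing depth is unknown. Of the H3K18la lists, that of 2 dpi replicate 1 was the longest, with 27578 peaks over 46.0 Mb. The others held 15190 to 17578 peaks over 25.3 to 32.5 Mb. Where 2 H3K18la values are given for 2 dpi, the first is from that longest list. H3K27ac at 4 dpi replicate 1 stood apart, with 205 Mb covered against 37.8 to 65.3 Mb in the other H3K27ac libraries. Its library ID has a prefix of its own. The other 3 H3K27ac libraries share another prefix, and all libraries of the other marks share one that no H3K27ac library has, so that H3K27ac and these prefixes cannot be told apart in any contrast of H3K18la with H3K27ac. Shifts and averages of H3K27ac are given with and without the library that stands apart.

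**Figure D1:**
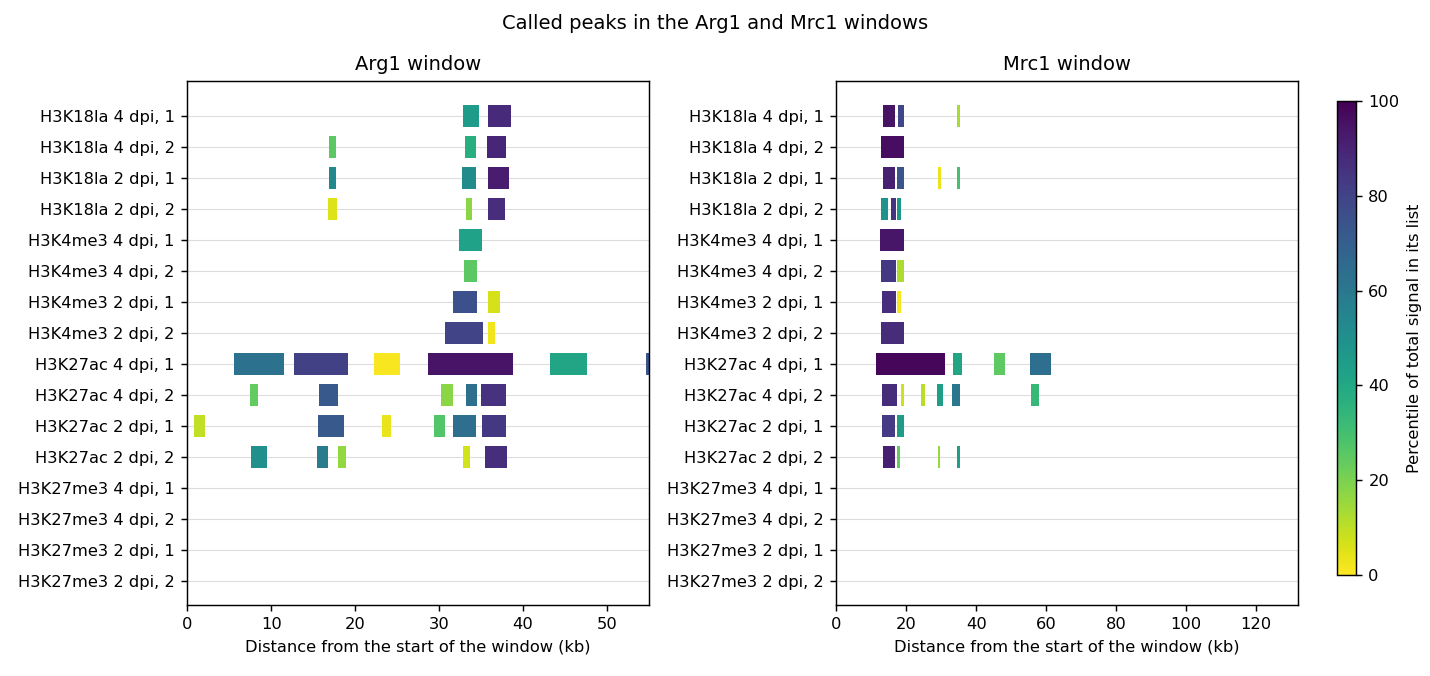
Called peaks in the Arg1 window (left) and the Mrc1 window (right). Each row is 1 library, with 4 dpi above 2 dpi, the x axis is the distance from the start of the window in kb, and the colour is the percentile of total signal of a peak in its list, from 0 to 100. The strongest H3K18la peak at Arg1 (percentiles 87.4 to 92.3) lies beside the strongest H3K4me3 peak, whereas at Mrc1 both cover the same stretch. The H3K27me3 rows are empty.

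At Arg1, H3K18la was held mainly by 1 region at chr10:24805718-24808504, called in all 4 libraries. Its peak stood at percentiles 88.1 and 89.4 at 4 dpi, against 92.3 and 87.4 at 2 dpi, and it was 2624 and 2233 bp long at 4 dpi, against 2504 and 2064 bp at 2 dpi. The time points overlapped in both measures, through 2 dpi replicate 1, the longest H3K18la list. For the test, the signal of a region was ranked within its library among all regions called in all 4 libraries of the mark, and ranks were turned into normal scores. The mean score at 4 dpi minus that at 2 dpi is called the shift. It was 0.06 for this region (SE 0.21, limma, adjusted p = 0.914). A weaker neighbour at chr10:24802751-24804730 had a peak at percentiles 45.3 and 36.9 at 4 dpi, against 51.8 and 17.5 at 2 dpi, and shifted by 0.49 (SE 0.54, limma, adjusted p = 0.704). The third region, chr10:24786769-24787820, was called in 3 libraries, with its peak at percentile 25.1 in replicate 2 at 4 dpi, and at 53.2 and 5.23 at 2 dpi. None of the H3K18la regions in either window passed the test, in a background where 0.118% of 9325 H3K18la regions did.

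H3K4me3 at Arg1 was weaker at 4 dpi. Its main region, chr10:24800739-24805172, was called over 2711 and 1497 bp at 4 dpi, against 2894 and 4434 bp at 2 dpi. Its peak stood at percentiles 42.3 and 25.3 at 4 dpi, against 75.8 and 79.9 at 2 dpi, so that both 4 dpi libraries lay below both 2 dpi libraries. The share of all H3K4me3 regions separated in this way was not counted. The main region was the only H3K4me3 region of the window that could be tested, and it fell by 1.46 in normal score (SE 0.18, limma, adjusted p = 0.000554). H3K4me3 moved widely between the time points: 15.9% of 13298 regions passed the test and 8.07% fell, so that a call alone is common for this mark. The number passing was 1114 of 13617 without replicate 1 at 4 dpi and 705 of 13984 without replicate 2, and the fall at Arg1 passed in both. The size of the fall was less common, with 58 of the 13298 regions shifting lower. When signal was divided by called length, the shift was -0.81 and no longer passed (limma, adjusted p = 0.263), under which setting 5 of all H3K4me3 regions passed in place of 2108.

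A second H3K4me3 region at Arg1, chr10:24805810-24807286, was called in both libraries at 2 dpi and in neither at 4 dpi. It was a weak peak, at percentiles 6.42 and 2.12 of its lists, 1477 and 799 bp long. Such losses were found for 1.29% of the 19426 H3K4me3 regions. This region lay inside the strongest H3K18la region, of which H3K4me3 covered 53.0% and 28.7% at 2 dpi, and which stayed called for H3K18la in every library.

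Summed over the 55 kb Arg1 window, H3K4me3 went the same way. H3K4me3 was called over 2711 and 1497 bp at 4 dpi, against 4371 and 5233 bp at 2 dpi. The time points did not overlap, as was so in this direction for 4.82% of windows of that length with an H3K4me3 peak in called length and for 22.1% in the percentile of the strongest peak. The summed H3K4me3 signal of the window fell by 1.48 in normal score (SE 0.16, limma, adjusted p = 0.000731), in a background where 18.6% of 9768 windows passed, and 313 of 9794 without replicate 1 at 4 dpi or 103 of 10066 without replicate 2. By signal per called base, a setting chosen after the data were seen, the window shift was -0.57 and did not pass (limma, adjusted p = 0.416), where 15 windows passed. With 25 kb added on each side, the fall was 0.60 and passed the test (limma, adjusted p = 0.00858), as did 21.9% of 7584 such windows. Of these, 364 shifted lower than Arg1, against 13 of 9768 for the window as given.

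H3K18la was called in the Arg1 window over 4482 and 4321 bp at 4 dpi, against 4942 and 3916 bp at 2 dpi, and its summed signal shifted by 0.08 (SE 0.19, limma, adjusted p = 0.866). Of 6071 such windows, 0.0988% passed. Whether H3K18la and H3K4me3 moved differently was tested as the interaction of mark and time in windows with signal in all 8 libraries, ranked anew, a test chosen after the shifts were seen. For Arg1 the shift of H3K18la minus that of H3K4me3 was 1.24 (SE 0.25, limma, unadjusted p = 0.000586), which did not pass after adjustment (adjusted p = 0.109). None of the 4368 windows passed (percentage called 0), and 569 had an unadjusted p under 0.05. The Arg1 difference was 0.96 by maximum signal (limma, adjusted p = 0.479) and 1.11 with lists of equal length (limma, adjusted p = 0.119). Without H3K18la at 4 dpi replicate 2 it was 1.22, and over all alternatives it ran from 0.96 to 1.35. Against H3K27ac the difference was -0.02 (SE 0.35, limma, adjusted p = 0.987), and 0 of 5437 windows passed (488 at an unadjusted p under 0.05). It was 0.27 without the library that stands apart (limma, adjusted p = 0.927).

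**Figure D2:**
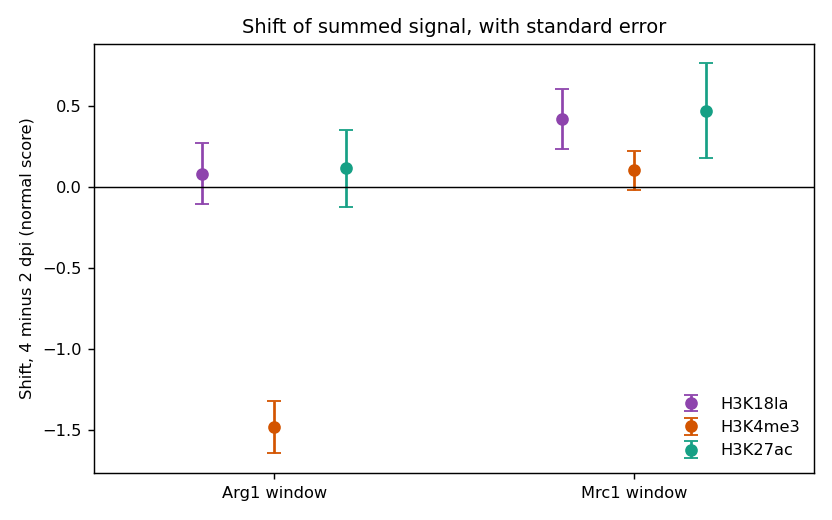
Shift of the summed signal of the Arg1 and Mrc1 windows, 4 minus 2 dpi, in normal score (y axis) for H3K18la, H3K4me3 and H3K27ac. Points are limma estimates from 2 against 2 libraries and bars are standard errors. H3K4me3 at Arg1 lies at -1.48, apart from the other estimates, which run between 0.08 and 0.47.

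H3K27ac covered more of the Arg1 window than the other marks, with 22 peaks that formed 7 regions. The strongest, chr10:24798683-24808757, spanned both the H3K4me3 and the main H3K18la regions. It stood among the called regions of its library at percentiles 94.5 and 89.8 at 4 dpi, against 90.3 and 82.2 at 2 dpi, and shifted by 0.15 (SE 0.23, limma, adjusted p = 0.796). Without the 4 dpi library that stands apart this stretch was no longer 1 region. The piece over H3K18la, chr10:24804962-24808074, shifted by -0.06 (limma, adjusted p = 0.984), and the piece over H3K4me3, chr10:24801715-24804468, by 0.77 (limma, adjusted p = 0.818). The region at chr10:24782672-24789205, which holds the small H3K18la region of the window, stood at percentiles 80.7 and 62.8 at 4 dpi, against 63.1 and 62.2 at 2 dpi. Its shift was 0.06 (SE 0.36, limma, adjusted p = 0.952), and -0.16 for the shorter region left without that library (chr10:24785414-24788894). The region at chr10:24824656-24830058, at the far edge of the window, was called in 3 libraries, at percentiles 74.0 and 53.7 at 4 dpi, and at 19.6 in replicate 1 at 2 dpi. None of the H3K27ac regions of either window passed, against 0.185% of 13494.

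The H3K27ac called length at Arg1 was 30310 and 8956 bp at 4 dpi, against 12545 and 7779 bp at 2 dpi, and the time points overlapped. The window shift was 0.12 (SE 0.24, limma, adjusted p = 0.842), in a background where 0.0297% of 10087 windows passed, and it was -0.12 without the library that stands apart (adjusted p = 0.891). The highest point of the strongest H3K18la peak lay at chr10:24806331 in 2 dpi replicate 1 and between 24807547 and 24807629 in the other 3 libraries of the mark. That of H3K27ac lay between 24806330 and 24806954, so that the ranges overlapped and the medians were 1187 bp apart. The overlap came from 2 dpi replicate 1 of H3K18la. H3K4me3 had its highest point between 24803534 and 24804032, at least 2299 bp away from that of H3K18la in any library.

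At Mrc1 the main regions of H3K18la, H3K4me3 and H3K27ac overlapped. The main H3K18la region, chr2:14232777-14239389, stood at percentiles 96.8 and 96.3 of the called regions at 4 dpi, against 94.5 and 92.6 at 2 dpi, so both 4 dpi libraries were above both 2 dpi libraries. The share of all H3K18la regions separated in this way was not counted. The main region shifted by 0.46 (SE 0.17, limma, unadjusted p = 0.0174), which did not pass after adjustment (adjusted p = 0.242). An unadjusted p under 0.05 was had by 1377 of the 9325 H3K18la regions tested, and 81.7% of the 9325 shifted lower. The strongest peak of the main region stood at percentiles 95.2 and 96.9 at 4 dpi, against 91.3 and 85.4 at 2 dpi. The time points did not overlap, as was so in this direction for 7.32% of 7732 windows. Ranked by highest signal in place of total signal they did overlap, at percentiles 93.9 and 97.6 at 4 dpi, against 92.6 and 96.8 at 2 dpi. The 2 further H3K18la regions were weak. The one at chr2:14254497-14255447 was called in replicate 1 of each time point, with peaks at percentile 13.2 at 4 dpi and 29.4 at 2 dpi. The one at chr2:14249038-14249912 was called in replicate 1 at 2 dpi, with a peak at percentile 3.28.

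Over the 132 kb Mrc1 window, H3K18la was called over 6253 and 6579 bp at 4 dpi, against 7458 and 4739 bp at 2 dpi. The time points overlapped in length, through 2 dpi replicate 1, the longest H3K18la list. The summed signal shifted by 0.42 (SE 0.18, limma, adjusted p = 0.274), in a background where 0.591% of 4565 windows passed.

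H3K4me3 at Mrc1 formed 1 region, chr2:14232648-14239436, with nearly the same edges as H3K18la. It stood among the called regions at percentiles 94.0 and 87.7 at 4 dpi, against 87.7 and 85.9 at 2 dpi, so that 1 library of each time point was level. It shifted by 0.20 (SE 0.13, limma, adjusted p = 0.282). The window was called over 6709 and 6200 bp at 4 dpi, against 5158 and 6495 bp at 2 dpi, and its shift was 0.10 (SE 0.12, limma, adjusted p = 0.556), where 22.7% of 6820 windows passed. That number fell to 0 of 6836 without replicate 1 at 4 dpi (1656 at an unadjusted p under 0.05) and to 71 of 6982 without replicate 2. In the interaction test the shift of H3K18la minus that of H3K4me3 was 0.31 at Mrc1 (SE 0.24, limma, adjusted p = 0.563), where 0.286% of 3850 windows passed. Against H3K27ac it was -0.08 (SE 0.42, limma, adjusted p = 0.957), where 0 of 4269 windows passed (397 at an unadjusted p under 0.05), and 0.079 without the library that stands apart (limma, adjusted p = 0.986).

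H3K27ac at Mrc1 had its strongest region at chr2:14231481-14251216, at percentiles 98.1 and 90.5 at 4 dpi, against 83.4 and 89.9 at 2 dpi, among the called regions. Its called length was 19736 bp in the library that stands apart and 8200 bp in the other one at 4 dpi, against 5584 and 4822 bp at 2 dpi. It shifted by 0.45 (SE 0.26, limma, adjusted p = 0.456). Without that library it came apart. Of the pieces called in all libraries left, chr2:14232959-14237298 shifted by -0.04 and chr2:14237409-14239427 by -1.14. Further peaks of this stretch could not be tested. In replicate 2 at 4 dpi they lay at chr2:14244223-14245505 and chr2:14248928-14250579. The latter was overlapped by a peak at chr2:14249022-14249771 in replicate 2 at 2 dpi. The region at chr2:14253179-14256094 was called in 3 libraries, at percentiles 41.3 and 51.4 at 4 dpi and at 34.7 in replicate 2 at 2 dpi. The region at chr2:14275378-14281285 was called in both libraries at 4 dpi, at percentiles 64.1 and 28.1 and over 5908 and 2320 bp, and in neither at 2 dpi. Such gains were found for 5.83% of the 43336 H3K27ac regions.

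Summed over the Mrc1 window, H3K27ac was called over 31692 and 12810 bp at 4 dpi, against 5584 and 5785 bp at 2 dpi. Both 4 dpi libraries lay above both 2 dpi libraries, as was so for 38.9% of 9638 windows with an H3K27ac peak. The shift of the window was 0.47 (SE 0.29, limma, adjusted p = 0.451), and 0.34 without the library that stands apart (adjusted p = 0.684), in a background where 0.267% of 6746 windows passed. In a sorted population, a mark on fewer cells and less of a mark per cell cannot be told apart.

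The highest point of the strongest peak at Mrc1 fell at the same place for H3K18la and H3K4me3. It lay between chr2:14236414 and 14236473 for H3K18la and between 14236393 and 14236479 for H3K4me3 over the 4 libraries. For H3K27ac it lay between 14234516 and 14236483, a spread of 1967 bp. It was at 14236483 in 4 dpi replicate 2 and between 14234516 and 14235178 in the other libraries of the mark. The ranges of H3K18la and H3K27ac overlapped through 4 dpi replicate 2 of H3K27ac, and the medians were 1516 bp apart.

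**Figure D3:**
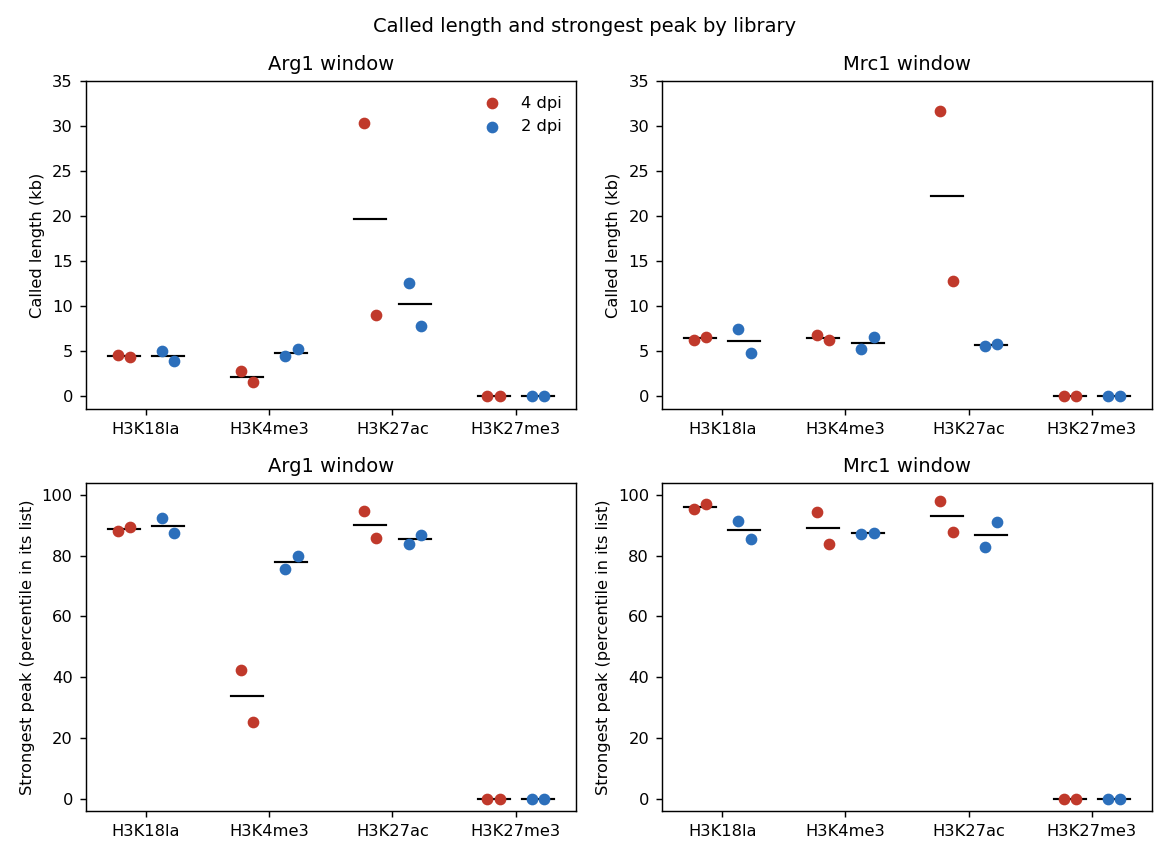
Called length in kb (top) and percentile of the strongest peak in its list (bottom) for each mark in the Arg1 and Mrc1 windows. Points are libraries, with 4 dpi left of 2 dpi, and lines are means of 2. H3K4me3 at Arg1 is low at 4 dpi (42.3 and 25.3) in the lower left panel, and H3K27ac at 4 dpi replicate 1 is the highest point of the upper panels (30.31 and 31.692 kb).

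H3K18la was then compared with each other mark over 4 libraries against 4, with both time points pooled, in 8 contrasts with H3K4me3 and H3K27ac tested by a 2-sided exact permutation test whose smallest p is 0.0286. Adjusted over these 8 contrasts, no p was under 0.114. At Arg1 the strongest peak of H3K18la averaged percentile 89.3 ± 2.20 (SD, n = 4), against 55.8 ± 26.4 for H3K4me3, and the libraries did not overlap (exact permutation p = 0.0286). Without any 1 of the H3K18la libraries the exact permutation p was 0.0857. Of windows of the same length with a peak of either mark, 18% had H3K18la above H3K4me3 without overlap. The 2 libraries of H3K4me3 at 4 dpi were the lowest of these 8. Against H3K27ac, at 87.8 ± 4.68, the difference of 1.51 lay within the spread (exact permutation p = 0.543), and 1.5% of windows showed no overlap in that direction. Without the library that stands apart H3K27ac averaged 85.5 ± 1.49 (SD, n = 3) and the difference was 3.77 (exact permutation p = 0.0571). A percentile depends on the length of its list, which was 15190 to 27578 peaks for H3K18la, against 24976 to 35971 for H3K27ac. With all lists cut to the shortest the difference was 14.0 (exact permutation p = 0.0571).

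The called length of H3K18la at Arg1 averaged 4415 ± 424 bp (SD, n = 4), against 14898 ± 10473 bp for H3K27ac (exact permutation p = 0.0286). H3K18la lay below H3K27ac without overlap here, as in 25.6% of windows. Without the library that stands apart the difference shrank to -5345 bp and the libraries still did not overlap (exact permutation p = 0.0286, the smallest that 4 against 3 allows). The exact permutation p was 0.0571 with all lists cut to the shortest and 0.0857 without any 1 H3K18la library. H3K4me3 was called over 3453 ± 1672 bp, and its difference from H3K18la lay within the spread (exact permutation p = 0.371, with 12.9% of windows without overlap).

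At Mrc1 the strongest peak of H3K18la averaged percentile 92.2 ± 5.07 (SD, n = 4), against 88.2 ± 4.36 for H3K4me3 and 89.9 ± 6.44 for H3K27ac. Both differences lay within the spread (exact permutation p = 0.286 and 0.6). In the genome 17.9% and 1.88% of windows of that length had H3K18la above without overlap. Against H3K27ac the difference of 2.27 became 5.00 without the library that stands apart (exact permutation p = 0.229) and 12.5 with all lists cut to the shortest (exact permutation p = 0.286). By the highest signal of a peak in place of its total, the differences at Mrc1 were 39.2 against H3K4me3 and 34.0 against H3K27ac. Both reached the smallest exact permutation p of 0.0286, without adjustment. The share of genome windows without overlap was not counted for that measure. The called length was 6257 ± 1133 bp for H3K18la, against 6141 ± 687 bp for H3K4me3 and 13968 ± 12285 bp for H3K27ac (exact permutation p = 0.886 and 0.314), with 12.1% and 31.1% of windows without overlap in those directions. Without the library that stands apart the length of H3K27ac was 8060 ± 4115 bp (SD, n = 3), and the difference of -7710.5 bp became -1802 bp (exact permutation p = 0.6).

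H3K27me3 had no called peak in either window in any of its 4 libraries. A list holds called peaks only, so this is an absence of calls at an unknown depth. A contrast with a value of 0 in all 4 libraries is no test, and none is given. In the genome H3K18la lay above H3K27me3 without overlap, in length and in strongest peak, in 24.9% and 28% of windows as long as that of Arg1, and in 24.3% and 30.8% of windows as long as that of Mrc1.

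Within a library, Arg1 and Mrc1 were compared by the share of the window covered and by the strongest peak. This test over 4 libraries cannot go below an exact p of 0.125. For H3K4me3 the strongest peak was lower at Arg1 than at Mrc1 in 4 of 4 libraries, at percentile 55.8 ± 26.4 for Arg1 and 88.2 ± 4.36 for Mrc1 (SD, n = 4, exact sign-flip permutation p = 0.125), with differences from -58.5 to -7.61. For H3K18la it was lower at Arg1 in 2 of 4 libraries, at 89.3 ± 2.20 for Arg1 and 92.2 ± 5.07 for Mrc1 (exact sign-flip permutation p = 0.5). H3K18la covered 8.03 ± 0.77% of the Arg1 window and 4.74 ± 0.86% of the Mrc1 window, more at Arg1 in 4 of 4 libraries. H3K27ac covered 27.1 ± 19.0% of the Arg1 window and 10.6 ± 9.31% of the Mrc1 window, also more at Arg1 in 4 of 4 libraries. Both of these shares reached the smallest exact p of 0.125. Without the library that stands apart the H3K27ac shares were 17.7 ± 4.51% for Arg1 and 6.11 ± 3.12% for Mrc1 (SD, n = 3, exact sign-flip permutation p = 0.25, the smallest that 3 libraries allow). H3K4me3 covered 6.28 ± 3.04% of the Arg1 window and 4.65 ± 0.52% of the Mrc1 window, with the larger share at Arg1 in 2 libraries and at Mrc1 in 2 (exact p by sign-flip permutation 0.5). The Mrc1 window is the longer one, so a share of it and a share of the Arg1 window rest on different lengths.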

How the data were processed

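Peak lists of 16 CUT&Tag libraries were analysed, 2 for each of 4 marks at each of 2 time points. The submitters' processing notes name Trim Galore 0.6.6, Bowtie2 2.4.4, SAMtools 1.13, bedtools 2.30 and, for the peaks of each library, SEACR 1.3. The deposited signal is the total and the highest fragment coverage of each peak, which the authors did not normalize between libraries. Read counts are not in the lists, so depth is unknown and no counting interval is given. The labels give GRCm39, the methods of the study name mm10 for the alignment, and GRCm39 was followed.

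The 2 genes, the windows and the lists were chosen with earlier results of these data known. Peaks on 21 chromosomes were used. A peak's percentile is its rank by total signal in its list. Regions were described one by one where they were among the 3 with the highest mean percentile per window and mark, passed the test, or were present at one time point in both libraries and absent at the other. Shifts were tested with limma 3.58.1 under R 4.3.3 (trended, robust variance, Benjamini-Hochberg adjustment, threshold 0.05) on normal scores of ranks, with all regions of a mark, or with genome windows as long as that of the locus, in the fit. The fits were tested on simulated data. Contrasts of marks used exact permutation in Python 3.11.15. Alternatives were other signal measures, scalings, list lengths, merging gaps and window widths, leaving out each library, and a replicate block. No annotation of GRCm39 was at hand, so start sites, other alternative activation genes and cell type markers were not analysed here.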

Additional observations from a re-analysis of the deposited data

Results flagged for a closer look

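The difference of shifts between H3K18la and H3K4me3 in the Arg1 window was singled out because the marks differed by a test of the difference itself, before adjustment. It was 1.24 in normal score (SE 0.25, limma, unadjusted p = 0.000586), with the summed H3K18la signal shifting by 0.08 and that of H3K4me3 by -1.48 in their own fits. It failed the correction over 4368 windows (limma, adjusted p = 0.109), and the test was chosen after the shifts had been seen. Both H3K4me3 libraries at 4 dpi lay below both at 2 dpi. None of the 12 groups of 4 libraries tested for each window, active mark and measure held a library far from the others by Dixon's rule. With 4 values this rule has little power, and it did not mark the H3K27ac library that stands apart either.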

How the results depend on the processing

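The fall of H3K4me3 at Arg1 kept its direction and passed the test under 9 of 10 alternatives for the window and 9 of 10 for the region. Window shifts that passed ran from -1.57 to -0.60 in normal score. On the log2 scale of median-scaled signal the window shift was -1.89 in log2 units (limma, adjusted p = 2.38e-09). By maximum signal the adjusted p was 0.0444 (limma). The exception was signal per called base for both window and region, where the window gave -0.57 (limma, adjusted p = 0.416). With each list limited to peaks above its median signal no H3K4me3 peak was left at Arg1 at 4 dpi, so no value could be had, nor for the weaker H3K18la region there. Labels give the same replicate numbers at both time points, but the mice differ. Same-numbered libraries did not deviate together (correlations of -0.06, -0.003 and 0.09 for H3K18la, H3K4me3 and H3K27ac), so the numbers were not taken to pair libraries. A replicate block gave the H3K4me3 window at Arg1 -1.48 (limma, adjusted p = 0.0047), where 14.2% of windows passed. It changed no call at Arg1 or Mrc1.

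Other calls and directions moved as follows, and the cause was not tested. At Arg1 the called length of H3K18la minus H3K27ac was -5934 bp with all lists cut to the shortest (exact permutation p = 0.0571). Without 1 library it ran from -12855 to -5345 bp, and the strongest peak of H3K18la minus H3K4me3 there from 23.3 to 41.5, with an exact permutation p of 0.0857 for both without any 1 H3K18la library. At Mrc1 the called length of H3K18la minus H3K4me3 was 117 bp as reported, -604 bp with peaks above the median of each list, 6231 bp in the widened window (exact permutation p = 0.0286) and from -283.5 to 623 bp without 1 library. By maximum signal the strongest peak of H3K18la at Mrc1 exceeded H3K4me3 by 39.2 and H3K27ac by 34.0, and Arg1 minus Mrc1 for H3K27ac was 24.4 in place of -2.15. Without 1 library H3K18la minus H3K27ac at Mrc1 ran from -0.12 to 5.00.

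Other reversals were of shifts that passed no test. By maximum signal the H3K18la window at Arg1 gave -0.14, its 2 tested regions -0.43 and -0.14, and H3K4me3 at Mrc1 -0.36 for the window and -0.39 for the region. By signal per called base the 2 H3K18la regions at Arg1 gave -0.11 and -0.18, their window -0.26 and the H3K27ac window at Mrc1 -0.075. On the log2 scale of median-scaled signal the H3K18la window at Arg1 gave -0.31 and its main region -0.27, where the median over all windows and regions was -0.39 and -0.31. With peaks above the median of each list that window gave -0.076. Without 1 library the window shifts ran from -0.12 to 0.35 for H3K27ac at Arg1 and from -0.026 to 0.23 for H3K4me3 at Mrc1. The H3K27ac regions, each followed by its longest overlapping piece, ran from -0.16 to 0.26 and from -0.061 to 0.27 at Arg1, and from -0.040 to 0.77 at Mrc1. Shorter pieces gave 0.77 at Arg1 and -1.14 at Mrc1. The difference of shifts of H3K18la against H3K27ac ran from -0.31 to 0.27 at Arg1 and from -0.45 to 0.36 at Mrc1. Numbers of called regions ranged across the alternatives from 0 to 367 for H3K18la (11 as reported), from 5 to 2776 for H3K4me3 (2108) and from 0 to 581 for H3K27ac (25). Those of called windows ranged from 0 to 561 for H3K18la (6), from 15 to 1791 for H3K4me3 (1812) and from 0 to 313 for H3K27ac (3) for windows as long as Arg1, and from 0 to 267 (27), from 0 to 1692 (1551) and from 0 to 1710 (18) for Mrc1. Depth is unknown, and 2 libraries per time point limit each shift.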
